A study of Mus musculus with 16 samples.

Results

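GABAergic cells of the newborn mouse cortex were compared directly with GABAergic cells of the newborn mouse cerebellum. The comparison used the 3 arrays of sorted cortex cells and the 3 arrays of sorted cerebellum cells, 6 of the 16 arrays of the series, chosen by their labels alone. Both groups came from GAD67-eGFP mice at postnatal day 1, kept on a C57Bl/6 background, in which a green fluorescent protein marks cells that make the GABA-synthesizing enzyme GAD67. The brains of 6 such mice were dissected, each region was dissociated, and fluorescent cells were sorted. The labels call the arrays of a region biological replicates, but do not say how many animals went into each. They also do not say whether cortex and cerebellum samples came from the same animals. The p-values and standard errors therefore measure the spread between samples of a group, pooled over the 5 groups of the series. Amplified cDNA of the sorted cells (Cy5, called the sorted-cell channel) was hybridized together with amplified cDNA of a common reference (Cy3), made from the whole brains of 4 mice of the same age. The labels mark the reporter and the region, not a subtype, so each group holds whatever fluorescent cells that region contained. The labels give both dyes the colour red, so which side of a ratio is the sorted cells was read from the names Cy5 and Cy3, and no dye swap was made.

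GABAergic neurons of the cortex are not born there. They arise in the ganglionic eminences of the ventral forebrain, where Dlx homeodomain transcription factors switch on the GABAergic programme, and migrate into the cortex. The medial eminence gives somatostatin and parvalbumin cells and the caudal eminence many of the others. The cerebellum has its own source, the Ptf1a-dependent ventricular zone of the hindbrain, which gives Purkinje cells first and Pax2-expressing interneuron precursors later, while the glutamatergic granule cells come from the separate Atoh1-dependent rhombic lip.

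Each value below is a log2 ratio of sorted cells over reference, so that 1 unit is a 2-fold difference, and each difference is the cortex mean minus the cerebellum mean: positive where cortex cells were higher and negative where cerebellum cells were higher. A gene was called when limma's Benjamini-Hochberg adjusted p was under 0.05. Of 27262 genes tested, 7096 (26%) were called, 2938 (10.8%) higher in cortex and 4158 (15.3%) higher in cerebellum. A called difference of at least 2-fold was found for 360 genes (1.32%), of which 140 (0.514%) were higher in cortex and 220 (0.807%) in cerebellum. The median difference over all genes was -0.038. Over 31 lists of genes that fit these tissues, 375 genes were tested, of which 65 were called higher in cortex, 131 higher in cerebellum and 179 were not called. Small called differences were the least stable. Among the called genes followed through 17 alternative settings, not all of them described here, 27 differed by under 0.5 in size. Of those 27 genes, 25 lost the call or changed sign in at least 1 setting, against 8 of 81 with a difference of 1 or more. With a value on all 6 arrays, 26804 genes could be asked whether the groups overlap, and for 11663 of them (43.5%) the 3 arrays of one group all lay above those of the other. Ratios correlated across genes, which are not independent replicates, at 0.964 to 0.973 between cortex arrays, 0.936 to 0.979 between cerebellum arrays and 0.838 to 0.894 between a cortex and a cerebellum array. The cerebellum arrays were brighter: the median sorted-cell signal was 331 to 718 units there and 151 to 255 units on the cortex arrays, and 90.9% to 96.6% of spots against 78.1% to 86.4% were well above background. These measures moved with the groups, and their part in the results was not tested.

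The GABA machinery itself was divided between the regions gene by gene. Of the 6 genes for making, packing and clearing GABA, 2 were called higher in cortex and 3 higher in cerebellum, with a median difference of -0.20. Gad1, which encodes GAD67 and whose reporter guided the sort, read 0.74, 0.93 and 0.70 on the cortex arrays and 0.67, 1.26 and 0.58 on the cerebellum arrays. All 6 arrays were thus above the whole brain reference for the gene the sort was built on. The groups overlapped, and the difference of -0.047 ± 0.13 (SE, n = 3 arrays a group) was not called, with an interval of -0.33 to 0.23 (95%); its sign turned to 0.095 with median centring, to 0.029 in the sorted-cell channel alone and to 0.16 without cerebellum replicate 2. Gad2, the other glutamate decarboxylase, read 1.74, 1.91 and 1.82 in cortex and 0.85, 1.17 and 0.68 in cerebellum, a difference of 0.92 ± 0.11 (limma adjusted p = 7.0e-06). Every cortex array was above every cerebellum array. Slc32a1, the vesicular transporter that loads GABA and glycine into synaptic vesicles, was the other way round, with 0.45 and 0.53 on the 2 cortex arrays that gave a value and 1.39, 1.79 and 1.31 in cerebellum, a difference of -1.01 ± 0.13 (limma adjusted p = 2.4e-05). Slc6a11 (GAT3, a plasma membrane GABA transporter found mainly on astrocytes) was at -1.51, with cortex arrays at -1.87, -1.75 and -1.73 and cerebellum arrays at -0.32, -0.21 and -0.30.

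Forebrain GABAergic transcription factors lay furthest to the cortex side. Of 9 tested members, 7 were called higher in cortex and 2 higher in cerebellum, with a median of 1.94 against -0.038 for all genes. Dlx1, a homeodomain factor of the ganglionic eminences, read 3.53, 3.53 and 3.34 on the cortex arrays and 0.58, 0.68 and 0.63 on the cerebellum arrays, 7.13-fold higher in cortex (2.83 ± 0.096, limma adjusted p = 1.4e-13). The cerebellum cells thus stayed above the whole brain reference for Dlx1, though far below the cortex cells. Dlx2 read 1.57, 1.95 and 1.57 in cortex and -0.063, -0.35 and 0.098 in cerebellum, a difference of 1.80 ± 0.13. Dlx5 differed by 1.94 ± 0.12 and Dlx6 by 2.10 ± 0.12; both were above 0 on all 6 arrays, with Dlx5 at 0.50, 0.74 and 0.43 and Dlx6 at 0.53, 0.79 and 0.62 in cerebellum. Dlx6os1, a noncoding RNA transcribed opposite to Dlx6, read 3.84, 3.76 and 3.80 in cortex and 1.21, 1.44 and 1.19 in cerebellum, a difference of 2.52 ± 0.098 or 5.74-fold. Amplified double-stranded cDNA was labelled, so a probe cannot tell such opposite transcripts apart where they overlap. Sp8, a zinc finger factor of caudal and lateral eminence lineages, differed by 2.01 ± 0.12. The exceptions were Gsx1, a ventral progenitor factor, at -1.37 ± 0.13, and Gsx2 at -0.30 ± 0.094. Gsx1 read -1.86, -2.13 and -2.05 in cortex and -0.56, -0.77 and -0.58 in cerebellum. Gsx2 was lost without background correction, with median centring and from the scanner's log ratio (limma adjusted p of 0.11, 0.083 and 0.43). It was also lost in the sorted-cell channel alone and without cortex replicate 2 or cerebellum replicate 1 (limma adjusted p of 0.13, 0.16 and 0.086). Nor was Gsx2 called when only the 6 arrays of cortex and cerebellum were fitted (limma adjusted p = 0.057). In the olfactory bulb and striatum groups of the same series, Dlx1 averaged 3.82 and 3.33, beside 3.46 ± 0.11 (SD, n = 3) in cortex and 0.63 ± 0.047 (SD, n = 3) in cerebellum.

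Genes that pattern the telencephalon, the part of the brain that forms cortex and striatum, leaned the same way. Of 13 members, 7 were called higher in cortex and 3 higher in cerebellum (median 0.86). Bcl11b (Ctip2), a zinc finger factor of striatal and deep cortical projection neurons and of some interneurons, read 0.28, 0.46 and 0.24 in cortex and -2.07, -2.04 and -1.99 in cerebellum. The groups lay on opposite sides of the reference and differed by 2.36 ± 0.092, or 5.14-fold (limma adjusted p = 7.7e-13). Its paralogue Bcl11a differed by 1.23 ± 0.10. Foxp1, Meis2, Isl1 and Zfp503, all known from striatal or bulb lineages, differed by 1.39, 1.20, 0.86 and 0.91. Ebf1, a helix-loop-helix factor of striatal neurons that hindbrain neurons also use, was higher in cerebellum at -1.08 ± 0.19. Emx2, a dorsal telencephalic factor, was at -0.57 ± 0.15 with ratios of 0.51, 0.45 and 0.53 in cortex and 0.97, 1.35 and 0.88 in cerebellum; in the sorted-cell channel alone it was at -0.14 and not called (limma adjusted p = 0.66), nor was it with median centring (limma adjusted p = 0.08).

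Other genes at the top of the cortex side belong to several kinds of protein. Etv1, an ETS factor of migrating bulb interneurons and of some cortical neurons, read 1.69, 1.81 and 1.61 in cortex and -0.70, -0.67 and -0.39 in cerebellum, a difference of 2.29 ± 0.095. Sox2, a factor of neural stem cells that some neurons keep, read 1.69, 1.75 and 1.56 in cortex and -0.64, -0.40 and -0.58 in cerebellum (2.21 ± 0.097). Id4, an inhibitor of helix-loop-helix factors, read 0.80, 0.98 and 0.83 and -1.24, -1.18 and -1.18. In these 3 genes every cortex array was above the reference and every cerebellum array below it. Tiam2, an activator of the GTPase Rac, was above the reference in both groups and 5.14-fold higher in cortex (3.28, 3.46 and 3.43 against 0.90, 1.14 and 1.04). Plxna4, a receptor for semaphorin guidance cues, was below the reference in both, at -0.48, -0.35 and -0.48 in cortex and -2.61, -2.79 and -2.37 in cerebellum, and differed by 2.16 ± 0.10. Tshz1, a zinc finger factor of bulb and striatal lineages, differed by 1.84 ± 0.083. Ets1 differed by 1.96 ± 0.11 and Tgfb1i1 (Hic-5, a focal adhesion protein) by 1.82 ± 0.092 at their brightest probes. For these 2 genes other probes gave differences down to 0.49 and 0.55, in the same direction.

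**Figure D1:**
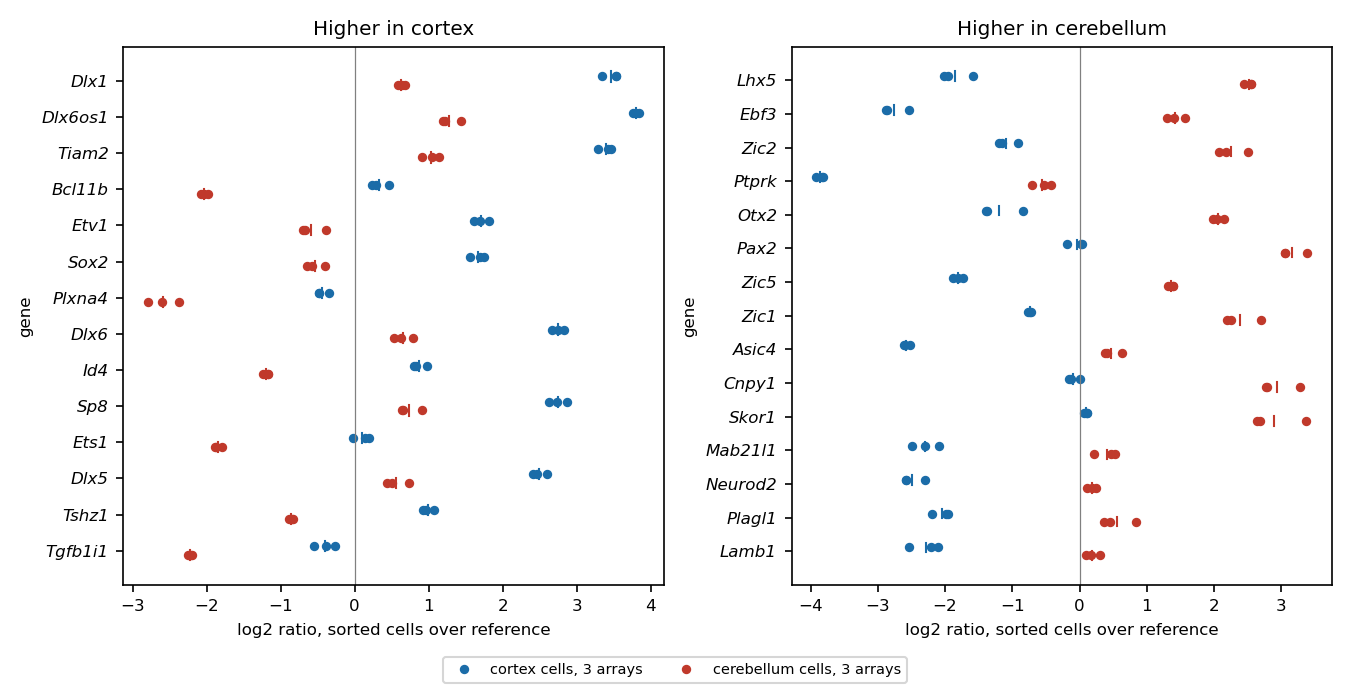
Log2 ratio of sorted cells over reference on each array (x axis) for the 14 named genes higher in cortex and the 15 higher in cerebellum (y axis); blue points are the 3 cortex arrays, red points the 3 cerebellum arrays and short bars the group means. The 2 groups do not overlap for any gene shown, because the rule required it; Lhx5, whose gap of -4.37 rests on a cortex level well above background on 1 array, and Otx2, on none, have only an uncertain size.

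Genes of the interneuron lineages that reach the cortex did not move as 1 block. Of 14 genes of the medial eminence lineage, 6 were called higher in cortex and 2 higher in cerebellum (median 0.23). Nkx2-1, the homeodomain factor that specifies that eminence, read 0.051, -0.01 and -0.063 in cortex and -1.24, -1.41 and -1.43 in cerebellum, a difference of 1.35 ± 0.14. Lhx6, its LIM homeodomain target in migrating interneurons, read 0.38, 0.22 and 0.33 in cortex and -0.61, -0.60 and -0.61 in cerebellum (0.92 ± 0.094). Nkx2-1 averaged 1.00 in the striatum group and -1.87 in the olfactory bulb group, so cortex cells lay between those. Npy, Ackr3 and Sox6 were also called higher in cortex, at 0.85, 0.70 and 0.46. Sst, the neuropeptide somatostatin, was far below the reference in both groups and lower in cortex, with -3.26, -3.30 and -3.57 in cortex and -1.49, -1.18 and -1.43 in cerebellum (-2.01 ± 0.12, limma adjusted p = 5.0e-10). Of 11 genes of the caudal eminence lineage, 4 were higher in cortex and 2 higher in cerebellum (median 0.0061). Without cerebellum replicate 3 the counts were 1 and 2, and without cortex replicate 2 or cerebellum replicate 1 they were 2 and 2. Htr3a, a serotonin-gated channel of these cells, differed by 0.73 ± 0.14, with the widest spread on the cortex side (0.54, 1.31 and 0.68). Adarb2 and the nuclear receptor Nr2f1 differed by 0.46 and 0.41; Adarb2 lost the call without cerebellum replicate 1 or 3 (0.35 and 0.37) and Nr2f1 in the sorted-cell channel alone (0.24) and without cortex replicate 2 or cerebellum replicate 3 (0.38 and 0.36). Reln, a secreted positioning signal that cortical Cajal-Retzius cells, interneurons and cerebellar granule cells all make, read -2.02, -2.06 and -2.29 in cortex and 0.12, 0.35 and 0.00037 in cerebellum, a difference of -2.28 ± 0.12, and of -1.25 as the mean of its probes.

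By list median, the cerebellum side was led by factors of hindbrain GABAergic specification. This rank was not kept with the scanner's log ratio, where the granule cell lineage list had the lower median. Of 11 tested members none was called higher in cortex and 8 were called higher in cerebellum, with a median of -0.86; the counts were the same at an unadjusted p under 0.05. Lhx5, a LIM homeodomain factor of newborn cerebellar GABAergic cells, read -1.58, -1.96 and -2.02 in cortex and 2.44, 2.55 and 2.55 in cerebellum. The difference was -4.37 ± 0.15 (limma adjusted p = 1.9e-13), and its size is uncertain, because Lhx5 was well above background on 1 of the 3 cortex arrays: it was -7.01 from the scanner's log ratio and -4.84 in the sorted-cell channel alone. Its partner Lhx1 read -0.53, -0.70 and -0.60 in cortex and 0.18, 0.43 and 0.14 in cerebellum (-0.86 ± 0.096, and -1.56 as the mean of its probes). Pax2, the paired-box factor of cerebellar interneuron precursors, stood near the reference in cortex cells at 0.029, -0.19 and 0.036 and far above it in cerebellum cells at 3.06, 3.06 and 3.39, 9.24-fold higher in cerebellum (-3.21 ± 0.13). Skor1, a corepressor, read 0.11, 0.061 and 0.11 in cortex and 2.69, 3.37 and 2.64 in cerebellum (-2.81 ± 0.14). Tfap2b and Tfap2a, AP-2 factors that act after Ptf1a, differed by -2.46 ± 0.12 and -1.16 ± 0.10; the mean of the Tfap2a probes gave -2.73. Ptf1a itself, the gene at the head of this pathway, was not called: -0.063, 0.13 and 0.042 in cortex, 0.17, 0.20 and 0.15 in cerebellum and a difference of -0.14 ± 0.11 (interval -0.36 to 0.086). Kirrel2, a Ptf1a target, was at -0.37. It was not called with median centring (limma adjusted p = 0.33) or from the scanner's log ratio (limma adjusted p = 0.13). Nor was it called without any of cortex replicates 1 and 2 and cerebellum replicates 1, 2 and 3, when it lay between -0.38 and -0.31. Larger differences were called in the sorted-cell channel alone (-0.75, limma adjusted p = 0.0026) and as the mean of its probes (-0.71, limma adjusted p = 7.0e-05).

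Purkinje cell genes were divided. Of 17 members, 4 were called higher in cortex, 7 higher in cerebellum and 6 were not called (median -0.26). Ebf3, a helix-loop-helix factor of early Purkinje and other hindbrain neurons, read -2.54, -2.88 and -2.87 in cortex and 1.40, 1.57 and 1.30 in cerebellum (-4.19 ± 0.11, 18.2-fold), although a dimmer probe of the same gene gave -1.53. Bhlhe22 was at -1.58 ± 0.13. Car8, a protein that modulates the inositol trisphosphate receptor, was at -0.56 ± 0.10, and Rora, the nuclear receptor required for Purkinje maturation, at -0.35 ± 0.082; as means of their probes, at -0.21 and -0.22, neither was called (limma adjusted p = 0.07 and 0.079). Other genes known from Purkinje cells went otherwise. Pcp2 was not called (-0.13), nor was the glutamate transporter Slc1a6 (-0.28). Calb1 (calbindin) read -1.37, -1.37 and -1.77 in cortex and -1.997, -3.24 and -1.83 in cerebellum and was called higher in cortex at 0.85 ± 0.25. Without cerebellum replicate 2, the lowest array, the difference was 0.41 and not called (limma adjusted p = 0.069), and it was also lost without cortex replicate 1 or 2 (0.79 each). Nor was Calb1 called when only the 6 arrays of cortex and cerebellum were fitted (0.85, limma adjusted p = 0.058). Etv1, described above, is the fourth member on the cortex side. Foxp2, a forkhead factor of Purkinje cells and also of striatal and deep cortical neurons, read 0.24, 0.47 and -0.016 in cortex and -1.42, -1.59 and -1.36 in cerebellum (1.69 ± 0.14). Pcp4 was at 0.41, and in the sorted-cell channel alone or as the mean of its probes it was not called (limma adjusted p = 0.34 and 0.11).

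Genes that place cells along the midbrain and hindbrain were called toward the cerebellum in the ratio, but in both directions in the sorted-cell signal. Of 19 members, none was called higher in cortex and 11 were called higher in cerebellum (median -0.31); at an unadjusted p under 0.05 the counts were 1 and 12. In the sorted-cell channel alone 2 were called higher in cortex, the growth factors Fgf8 (1.43) and Fgf17 (0.53), and 8 higher in cerebellum. The summed sorted-cell signal of the list was 19594 to 25513 units on the cortex arrays and 15785 to 18230 on the cerebellum arrays. Otx2, a homeodomain factor of midbrain and of cerebellar granule precursors, read 1.98, 2.15 and 2.05 in cerebellum. On the cortex arrays it read -0.84, -1.37 and -1.38 and was not well above background on any of the 3. The ratios differed by -3.26 ± 0.15 (9.56-fold, limma adjusted p = 7.7e-12). The size of that difference is uncertain, since the cortex level is only bounded. For such genes a bound was taken in the sorted-cell signal, not the ratio, against the lowest signal well above background on each array; it does not use the reference and, with no dye swap, is open to dye bias. In that signal Otx2 was at least 11.3-fold higher in cerebellum. Cnpy1, an FGF pathway gene of the midbrain-hindbrain boundary, read 0.0021, -0.16 and -0.13 in cortex and 2.77, 3.27 and 2.78 in cerebellum (-3.04 ± 0.16). Gata3 and Tal1, factors that set GABAergic fate in midbrain and hindbrain, differed by -2.02 ± 0.099 and -1.80 ± 0.11; both were below the reference on every cortex array and above it on every cerebellum array. Gata2, which acts before them, was called at -0.80 ± 0.13 (1.74-fold in the ratio; at least 2.08-fold higher in cerebellum in the sorted-cell signal) and was not well above background on the cortex arrays. Its 2 probes gave ratio differences of -0.80 and -0.026, with a mean of -0.41. Irx1 differed by -1.64 ± 0.15 and En2, an engrailed factor of cerebellar folding, by -1.23 ± 0.097. En1, not well above background on the cortex arrays either, was called at -0.42 in the ratio and was at least 1.34-fold higher in cerebellum in the sorted-cell signal. Without cortex replicate 3 it was at -0.30 and not called (limma adjusted p = 0.095).

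The promoters of 4 genes at the ends of the comparison are shown because they illustrate, on the cortex side, Dlx1 and Dlx6os1, and on the cerebellum side, Otx2 and Pax2. Each run is the RefSeq promoter window of 300 bases on build GRCm38.p6, written 5′ to 3′ on the gene's strand, with TAATTA (a core bound by many homeodomain factors) and CAGCTG (an E-box read by helix-loop-helix factors) in capitals. Both motifs are the same on either strand and cannot overlap each other. The start with most TAATTA was taken where a gene has several, and the windows lie at chr2:71529195-71529494 (plus strand), chr6:6869484-6869783 (minus), chr14:48665060-48665359 (minus) and chr19:44746351-44746650 (plus).
Dlx1: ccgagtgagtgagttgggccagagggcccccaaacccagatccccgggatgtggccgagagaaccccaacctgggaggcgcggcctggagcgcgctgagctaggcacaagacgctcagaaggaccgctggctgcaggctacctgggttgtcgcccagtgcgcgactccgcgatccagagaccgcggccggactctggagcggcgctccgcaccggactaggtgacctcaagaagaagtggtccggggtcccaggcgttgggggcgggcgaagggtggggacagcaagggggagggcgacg
Dlx6os1: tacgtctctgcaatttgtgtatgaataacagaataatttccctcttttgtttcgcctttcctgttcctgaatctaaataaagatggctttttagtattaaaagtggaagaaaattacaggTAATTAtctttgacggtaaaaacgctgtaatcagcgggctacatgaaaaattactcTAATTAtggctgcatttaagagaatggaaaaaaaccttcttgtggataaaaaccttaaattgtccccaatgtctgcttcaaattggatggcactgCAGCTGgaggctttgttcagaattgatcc
Otx2: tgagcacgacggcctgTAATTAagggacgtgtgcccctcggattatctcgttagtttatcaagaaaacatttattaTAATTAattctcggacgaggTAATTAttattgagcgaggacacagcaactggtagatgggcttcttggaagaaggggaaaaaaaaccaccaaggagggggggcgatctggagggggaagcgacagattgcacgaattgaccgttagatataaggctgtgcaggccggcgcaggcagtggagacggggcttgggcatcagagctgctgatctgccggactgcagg
Pax2: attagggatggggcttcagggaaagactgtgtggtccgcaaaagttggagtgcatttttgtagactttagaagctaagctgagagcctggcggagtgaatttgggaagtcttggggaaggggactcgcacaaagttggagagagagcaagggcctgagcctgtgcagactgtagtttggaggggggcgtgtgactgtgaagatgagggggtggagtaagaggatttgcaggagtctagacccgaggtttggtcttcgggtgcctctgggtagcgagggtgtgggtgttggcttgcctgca
TAATTA occurred 2 times in the Dlx6os1 window, 3 times in the Otx2 window, and not in those of Dlx1 and Pax2. CAGCTG occurred 1 time, in the Dlx6os1 window. Of the 15 named genes on the cortex side 8 were in the promoter table and 2 held TAATTA at a start, and of the 15 on the cerebellum side 11 were in it and 1 held TAATTA. The other motif, CAGCTG, was held by 1 of the 8 and 1 of the 11. Counted the same way, by gene, 6.12% of the 27025 genes of the table held TAATTA and 18.3% held CAGCTG; over its 32851 windows the shares were 5.29% and 16.3%. A match describes the letters of the window and is not a site shown to be used.

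Zic1, Zic2, Zic5 and other genes of the granule cell lineage were high in the sorted cerebellum cells, although granule cells are glutamatergic. Of 16 members, 1 was called higher in cortex (the homeodomain cofactor Meis1, 0.36) and 8 were called higher in cerebellum (median -0.53). Zic1, a zinc finger factor of granule cell precursors that other cerebellar cells and meninges also make, read -0.76, -0.72 and -0.74 in cortex and 2.26, 2.70 and 2.19 in cerebellum, 8.70-fold higher. Zic2 read -1.16, -0.91 and -1.20 and 2.18, 2.51 and 2.07 (-3.34 ± 0.11), and Zic5 read -1.74, -1.81 and -1.89 and 1.31, 1.39 and 1.39 (-3.18 ± 0.092). All 3 stood below the reference on every cortex array and above it on every cerebellum array. Zic4 was not called at its brightest probe (-0.097), but its readings conflicted. As the mean of its probes it was called higher in cerebellum (-0.59, limma adjusted p = 0.019). In the sorted-cell channel alone it was called higher in cortex (0.50, limma adjusted p = 0.023). Zic1 averaged 0.84 in the olfactory bulb group and 0.23 in the striatum group, between its cortex and cerebellum means. Atoh1, which defines the rhombic lip, read -0.10, 0.021 and 0.037 in cortex and 0.71, 0.84 and 0.57 in cerebellum (-0.72 ± 0.12). Neurod1, a helix-loop-helix factor of differentiating granule cells, differed by -1.63 ± 0.14 in the ratio, with 1.47, 2.12 and 1.45 in cerebellum and no cortex array well above background; in the sorted-cell signal it was at least 3.72-fold higher in cerebellum. Barhl1, a homeodomain factor of granule cells, and the synaptic organizer Cbln1 differed by -1.03 ± 0.11 and -1.51 ± 0.085. Gabra6, a receptor subunit of mature granule cells, was not well above background on any cortex array and was well above it on 1 cerebellum array. The summed sorted-cell signal of the list was 11943 to 12906 units on the cortex arrays and 24220 to 24800 on the cerebellum arrays. In bulk samples such as these, fewer cells of a type and less RNA per cell cannot be told apart.

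Forebrain glutamatergic genes, which mark excitatory neurons, were called in both directions. Granule cells also make some of them, such as Neurod2. The comparison with cerebellum therefore cannot show whether excitatory neurons were carried through the sort of cortex. Of 14 members, 5 were called higher in cortex and 6 higher in cerebellum (median -0.041), and their summed sorted-cell signal was 5220 to 5545 in cortex and 6783 to 7342 in cerebellum. In the sorted-cell channel alone the counts were 2 and 6. Neurod2, a helix-loop-helix factor of cortical excitatory neurons and of granule cells, read -2.58, -2.58 and -2.30 in cortex and 0.10, 0.18 and 0.25 in cerebellum (-2.67 ± 0.11). Neurog2 and Neurod6 were also higher in cerebellum, at -1.03 ± 0.095 and -0.97 ± 0.13. Slc17a7, the vesicular glutamate transporter VGLUT1, was far below the reference in both groups (-2.42, -2.88 and -2.98 in cortex, -3.31, -4.17 and -3.11 in cerebellum), and its difference of 0.77 was not called in the sorted-cell channel alone (limma adjusted p = 0.095) or without cortex replicate 1 (0.60) or cerebellum replicate 2 (0.45). Slc17a6 (VGLUT2) was at 0.42 at its brightest probe but at -0.34 as the mean of its probes. It was not called without cortex replicate 1 (0.37) or cerebellum replicate 2 (0.31). Fezf2, of deep layer projection neurons, was at 0.47, and at 0.28 and not called without cerebellum replicate 2.

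Among the 15 lowest differences were also genes of other kinds. Ptprk, a receptor phosphatase for cell adhesion, was below the reference in both groups, at -3.81, -3.92 and -3.84 in cortex and -0.52, -0.43 and -0.70 in cerebellum (-3.30 ± 0.12); its 3 probes gave differences from -3.30 to -0.78. Asic4, a member of the acid-sensing channel family, read -2.53, -2.60 and -2.62 in cortex and 0.38, 0.63 and 0.41 in cerebellum, 8.30-fold higher. Lamb1, a laminin chain of basement membranes, differed by -2.47 ± 0.12. Mab21l1, a cell fate gene, differed by -2.69 ± 0.10 and Plagl1, an imprinted zinc finger factor, by -2.60 ± 0.13, its other probe giving -0.50. Asic4, Lamb1, Mab21l1 and Plagl1 were below the reference on every cortex array and above it on every cerebellum array.

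Some receptors and transporters of inhibitory transmission were called, beside 26% of all genes called and 1.32% called with a 2-fold difference. Of 15 GABA receptor genes, 1 was called higher in cortex (Gabrg3, 0.50) and 4 higher in cerebellum (median -0.22). The counts were 2 and 1 with median centring and 1 and 1 with the mean of probes. Gabbr2, a subunit of the metabotropic GABA receptor, read -2.33, -2.29 and -2.47 in cortex and -1.22, -1.58 and -0.91 in cerebellum (-1.13 ± 0.15). The ionotropic subunit Gabra2 was at -0.40; it was not called with median centring (limma adjusted p = 0.25) or as the mean of its probes (limma adjusted p = 0.43). Gabrg3 was not called without cortex replicate 1 or 2 (0.48 and 0.49) or cerebellum replicate 3 (0.35). Among 9 genes of glycine transmission none was called higher in cortex and 3 were higher in cerebellum (median -0.24; 0 and 4 at an unadjusted p under 0.05), with the receptor subunits Glra2 at -0.87 ± 0.13 and Glrb at -0.42 ± 0.12. Slc6a5, the neuronal glycine transporter that marks glycinergic cells, was called at -0.42 in the ratio and was at least 1.20-fold higher in cerebellum in the sorted-cell signal, with no cortex array well above background. Slc6a5 was not called without cortex replicate 1 or 2 or cerebellum replicate 2 (-0.41, -0.39 and -0.25), and Glrb not without cortex replicate 2 or cerebellum replicate 1 (-0.38 and -0.33). Of the 4 chloride cotransporters, which set whether GABA excites or inhibits, 1 was called higher in cortex and 1 higher in cerebellum (median 0.014). Slc12a5 (KCC2, the neuronal chloride exporter) was the one higher in cerebellum, at -0.45 ± 0.092, and was lost with median centring (limma adjusted p = 0.057), while Slc12a2 (NKCC1, the importer) was not called (-0.035). Of 13 ionotropic glutamate receptor genes, 2 were higher in cortex (Gria1 0.39 and Gria2 0.37) and 3 higher in cerebellum (Gria3 -0.60, Grin1 -0.44 and Gria4 -0.38), with a median of -0.046. Neither Gria1 nor Gria2 was called in the sorted-cell channel alone (0.13 and 0.40) or without cortex replicate 2 (0.33 and 0.31) or cerebellum replicate 3 (0.32 and 0.25), nor Gria2 without cerebellum replicate 1 (0.36); Grin1 and Gria4 were not called with median centring (limma adjusted p = 0.072 and 0.28). Of 13 neuropeptide genes, 3 were called in each direction (median -0.031): beside Npy and Sst, Nts was at 0.84 and Penk at 0.36 (0.28 and not called in the sorted-cell channel alone; 0.30, 0.36 and 0.22 and not called without cortex replicate 1 or 2 or cerebellum replicate 2), while Pnoc, the nociceptin precursor, read -1.22, -1.14 and -1.42 in cortex and 0.19, 0.17 and 0.10 in cerebellum (-1.41 ± 0.17), and Cartpt was at -0.78.

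Guidance genes were called in both directions, and few cadherins were called. Of 21 migration and guidance genes, 7 were called higher in cortex and 6 higher in cerebellum (median -0.094). With Plxna4 above, the cortex side held Plxna2, another semaphorin receptor chain, at 1.29 ± 0.09, the ephrin receptors Epha5 at 1.08 ± 0.13 and Epha4 at 0.82, and Dcx, the microtubule protein of migrating neurons, at 0.66. The cerebellum side held Unc5c, a repulsive netrin receptor, with -0.50, -0.62 and -0.58 in cortex and 1.38, 1.90 and 1.18 in cerebellum (-2.05 ± 0.15). It also held netrin itself, Ntn1, at -1.23 ± 0.10, the other netrin receptor Dcc at -0.51, the ephrin Efna5 at -1.82 ± 0.10 and the repellent Slit2 at -0.50; Slit2 was not called with median centring or as the mean of its probes (limma adjusted p = 0.074 and 0.27). Of 18 cadherins, Pcdh9 (0.79) was called higher in cortex, and Cdh9 (-0.56), Cdh4 (-0.51) and Cdh18 (-0.43) were called higher in cerebellum (list median 0.0064), a share near the 26% called among all genes and so no result about cadherins as a group. In the sorted-cell channel alone the counts were reversed, 3 higher in cortex (Pcdh9, Cdh11 and Pcdh10) and 1 in cerebellum (Cdh4). Neither Cdh9 nor Cdh18 was called there (limma adjusted p = 0.19 and 0.28), and Cdh4 and Cdh18 were not called with median centring (limma adjusted p = 0.052 and 0.065). Of 12 retinoic acid and nuclear receptor genes, 4 were higher in cortex, led by the receptor Rara (1.11 ± 0.12), and 2 higher in cerebellum, Nr4a2 at -1.13 ± 0.11 and the retinoic acid degrading enzyme Cyp26b1 at -0.54 (median 0.04). In the sorted-cell channel alone the balance turned, with 1 higher in cortex (Rara) and 3 in cerebellum (Nr4a2, Cyp26b1 and Aldh1a3). Cyp26b1 was not called without cortex replicate 2 (-0.50) or cerebellum replicate 1 (-0.47). All 4 nuclear factor I genes, which promote glial and late neuronal differentiation, were called higher in cerebellum (median -0.56). Nfia read 0.18, 0.12 and 0.019 in cortex and 1.26, 1.43 and 1.29 in cerebellum (-1.23 ± 0.13); Nfib, Nfic and Nfix were at -0.56, -0.33 and -0.56, and Nfib and Nfic were not called in the sorted-cell channel alone (limma adjusted p = 0.19 and 0.094) or with median centring. Without cerebellum replicate 2 Nfib was at -0.34 and Nfic at -0.20, the latter not called, and Nfic was also lost without cortex replicate 2 (-0.23).

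**Figure D2:**
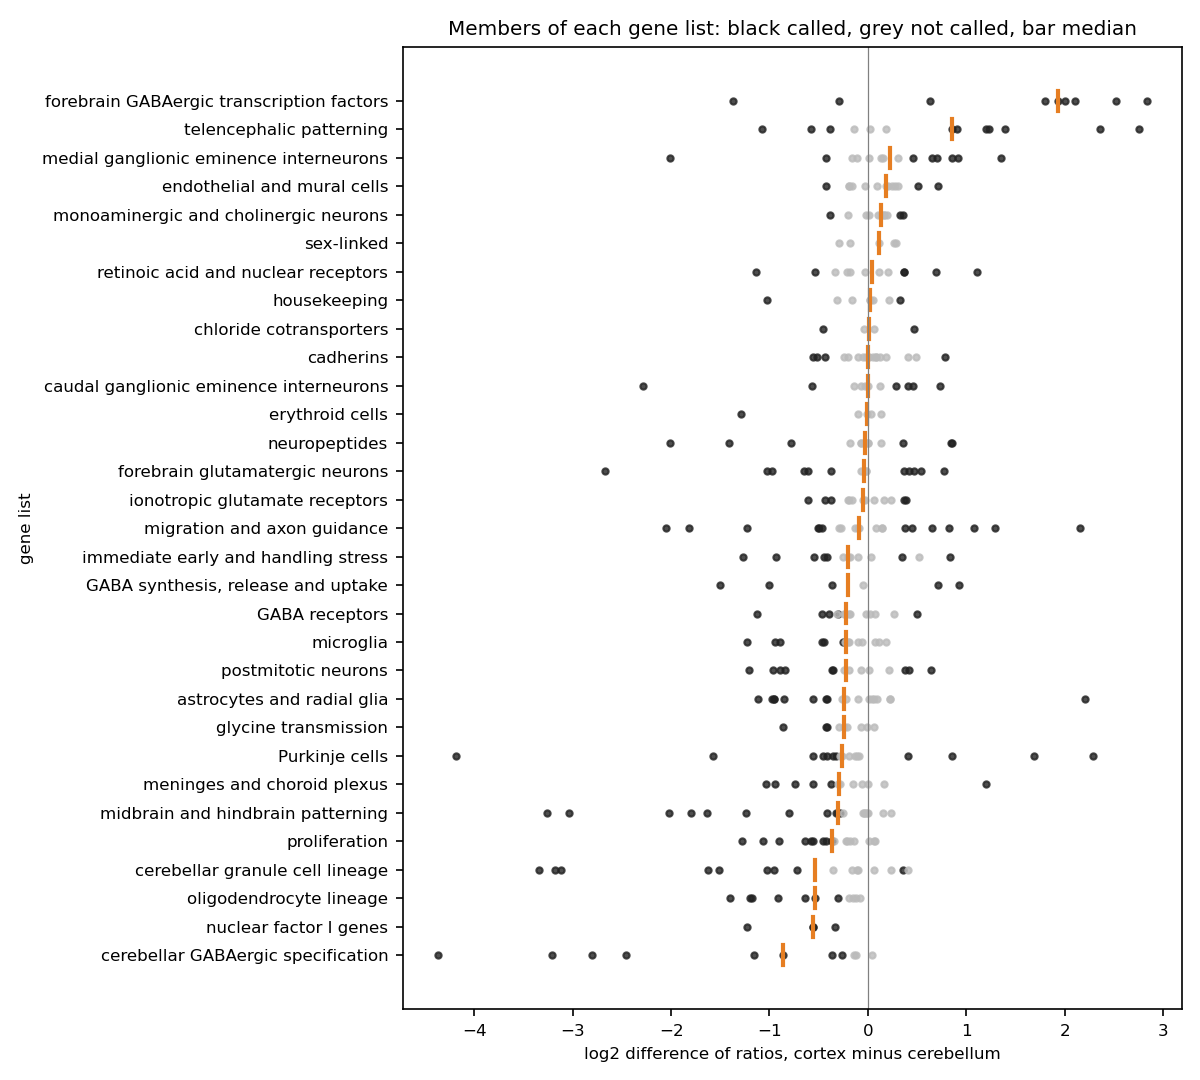
Log2 difference of ratios, cortex minus cerebellum (x axis), for each tested member of the 31 gene lists (y axis, ordered by median); black points were called, grey points were not, and the orange bar is the list median. Forebrain GABAergic transcription factors lie furthest to the cortex side, with a median of 1.94, and cerebellar GABAergic specification genes furthest to the cerebellum side, with -0.86.

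Neuronal maturity and cell cycle genes were called in part. Of 14 genes of postmitotic neurons, 3 were higher in cortex and 6 higher in cerebellum (median -0.22). Nefm and Nefl, neurofilament chains, and Gap43, a growth cone protein, were higher in cerebellum at -1.21 ± 0.11, -0.89 ± 0.11 and -0.97 ± 0.12. Tubb3, a neuronal tubulin, was higher in cortex at 0.64 ± 0.13. Of 18 proliferation genes none was called higher in cortex and 10 were higher in cerebellum (median -0.36; 0 and 11 at an unadjusted p under 0.05), but 5 in the sorted-cell channel alone. They were led by Birc5 (-1.28 ± 0.19) and the replication helicase subunits Mcm2 (-1.07 ± 0.11) and Mcm3 (-0.90). Mki67 was not called (0.014). Of 13 immediate early and handling stress genes, 2 were higher in cortex and 5 higher in cerebellum (median -0.20). Fos read 2.32, 2.68 and 2.47 in cortex and 3.20, 4.10 and 2.98 in cerebellum (-0.94 ± 0.20), and was at -0.60, still called, without cerebellum replicate 2; Jun went the other way at 0.84 ± 0.11. Of 8 housekeeping genes, 1 was called in each direction (median 0.022), Tbp at 0.33 and B2m at -1.03, though B2m was at -0.22 and not called (limma adjusted p = 0.17) as the mean of its probes. Tbp was not called in the sorted-cell channel alone (limma adjusted p = 0.14) or without cortex replicate 1 or 2 (0.33 and 0.25) or cerebellum replicate 1 or 3 (0.31 and 0.30). The share called among the 8 was near the 26% of all genes, so it is no result about housekeeping genes as a group. None of 5 sex-linked genes was called by limma (median 0.12), and at an unadjusted p under 0.05 there was 1 in each direction.

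In every list of non-neuronal cells but the erythroid list, most members had a mean ratio below the reference in both groups. The called members of the glial, microglial and meningeal lists were mostly higher in cerebellum. Of 18 astrocyte and radial glia genes, 1 (Sox2) was called higher in cortex and 8 higher in cerebellum (median -0.24), with summed sorted-cell signals of 28120 to 30804 units in cortex and 33939 to 41053 in cerebellum. Slc1a3 (GLAST) read -2.77, -2.88 and -3.08 in cortex and -2.07, -1.79 and -2.01 in cerebellum (-0.95 ± 0.10), Fabp7, a fatty acid binding protein of radial glia, differed by -1.11 ± 0.10 and Gja1 by -0.97 ± 0.16, and Gfap was not called (0.097). Aldoc differed by -0.95, and by -0.41 as the mean of its probes. Of 11 oligodendrocyte lineage genes none was higher in cortex and 7 were higher in cerebellum (median -0.54; summed signals 4662 to 5111 and 5892 to 6235), among them Pdgfra (-1.20 ± 0.083), the growth factor receptor of oligodendrocyte precursors, and Nkx2-2 (-1.41 ± 0.14). Of these genes 4 were called as the mean of their probes and 5 in the sorted-cell channel alone. Of 14 microglia genes none was higher in cortex and 6 were higher in cerebellum (median -0.22; 4807 to 5273 and 6098 to 6398), led by Fcer1g (-1.23 ± 0.10), with Csf1r at -0.95. For oligodendrocyte and microglia genes the counts were the same at an unadjusted p under 0.05. Of 13 endothelial and mural genes, 2 were higher in cortex and 1 higher in cerebellum (median 0.18; 21065 to 21743 and 18622 to 23643). In the sorted-cell channel alone the counts were 0 and 2 (Flt1 and Kdr, both higher in cerebellum). Flt1, on the cortex side at 0.72, was at -0.60 in the sorted-cell channel alone, and it was not called without cortex replicate 2 (0.62) or cerebellum replicate 1 (0.67). Of 12 meningeal and choroid plexus genes, 1 was higher in cortex and 5 higher in cerebellum (median -0.29; 6141 to 6848 and 7728 to 7937). The first was Ttr (1.20 ± 0.19), and Igf2 was among the latter at -1.03 ± 0.11. Of 5 erythroid genes only Hba-a1 was called (-1.29 ± 0.17; list median -0.0089). Summed signals were 4846 to 6123 in cortex and 1135 to 12585 in cerebellum, where 1 array gave no value for Hba-a1. Of 11 monoaminergic and cholinergic genes, 2 were higher in cortex and 1 higher in cerebellum (median 0.14; 2560 to 2885 and 2855 to 2930). In the endothelial, erythroid and monoaminergic lists the share called was near the 26% of all genes, so those counts are no result about the lists as groups. Within all these lists, Kdr, Slc5a7 and Tph2 were not well above background on any cortex array. The part of these cell types in the differences above was not tested.

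Because the comparison rests on a ratio, each channel was also fitted alone, after quantile normalization between arrays. In the sorted-cell channel alone 6069 genes (22.3%) were called, 2974 (10.9%) higher in cortex and 3095 (11.4%) higher in cerebellum, and 710 (2.6%) differed by at least 2-fold, 221 (0.811%) higher in cortex and 489 (1.79%) higher in cerebellum. The count was 3830, 3877 and 3780 without cortex replicate 1, cortex replicate 2 and cerebellum replicate 1, and 4269, 5496 and 4737 without cortex replicate 3, cerebellum replicate 2 and cerebellum replicate 3. Of the 360 genes whose called ratio difference reached 2-fold, 343 kept the sign in the sorted-cell channel alone, 335 were also called there and 297 were called there with a 2-fold difference. Dlx1 differed by 2.81 in the sorted-cell channel alone and by 0.047 in the reference channel alone. The corresponding values were 2.09 and -0.39 for Bcl11b, -4.84 and 0.014 for Lhx5, -3.52 and -0.23 for Pax2, and -2.72 and 0.46 for Zic2. All 5 are among the genes named by a rule that required the sorted-cell difference to exceed the reference difference. In the reference channel alone 5 genes (0.0183%) were called when all 16 arrays were fitted, 1 when any of the 6 arrays was left out, but 859 (3.15%) when only the 6 arrays of cortex and cerebellum were, 74 of them (0.271%) with a 2-fold difference: 20 higher on the cortex arrays and 54 higher on the cerebellum arrays. The reference signal was thus not the same on the 2 sets of arrays for those genes. Lyz1, Spp1 and Ugt2a3, called with a 2-fold difference in ratio, were not called in the sorted-cell channel alone, where they differed by 0.14, 0.17 and -0.56, and Selenbp1 and Mela changed sign to -0.38 and 1.35. Of the 360 genes, 38 were called in the reference channel with the 6 arrays, and for 23 the reference difference was larger than the sorted-cell difference.

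**Figure D3:**
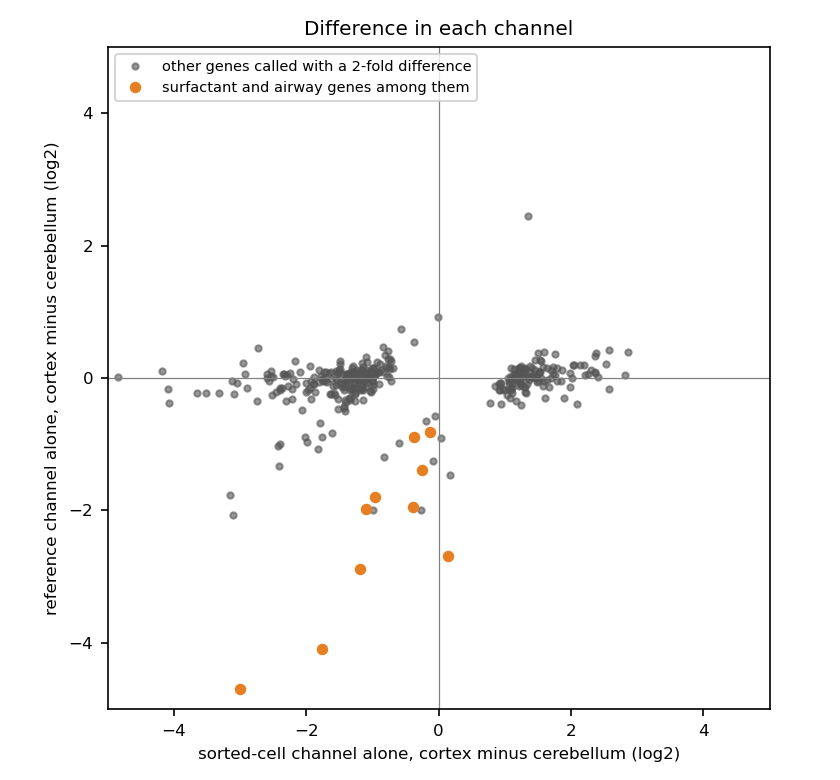
Cortex minus cerebellum difference of normalized log2 signal in the sorted-cell channel alone (x axis) and in the reference channel alone (y axis) for the 360 genes with a called ratio difference of at least 2-fold; orange points are surfactant and airway genes. Most genes lie along the horizontal line of no reference difference, 343 keep the sign of the ratio in the sorted-cell channel, and the orange genes lie below it, Sftpc lowest at -4.70 in the reference channel.

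Several of the genes whose reference signal moved the ratio are products of lung and airway epithelium. A list of 18 surfactant and airway genes was drawn up after their values were seen, so their counts describe the data only. In the reference channel, on loess-normalized and Aquantile-scaled signals, all 18 were higher on the cerebellum arrays than on the cortex arrays, 12 of them by at least 2-fold. Sftpc, surfactant protein C of lung alveolar cells, had reference signals (log2) of 7.11, 7.24 and 7.36 on the cortex arrays and from 11.34 to 12.01 on the cerebellum arrays, a difference of 4.55. Its sorted-cell signals were also higher there, 7.14, 7.21 and 7.36 on the cortex arrays against 10.42, 10.22 and 10.05 on the cerebellum arrays (3.00). Because the reference differed more, its ratio was nevertheless 1.56 higher in cortex. The same held for Sftpa1 (reference 3.19, sorted cells 0.92, ratio 2.27) and for Lyz2, a lysozyme (reference 4.12, sorted cells 1.72, ratio 2.40). For Scgb1a1, the secretoglobin of airway club cells, the reference differed by 2.94 and the sorted cells by 1.99. The summed reference signal of the list was 5318 to 5720 units on the cortex arrays and 14248 to 20406 on the cerebellum arrays. It was 4738 to 5204 on the olfactory bulb arrays, 17668 to 19040 on the striatum arrays, and 5612, 20808, 18672 and 6525 on whole brain arrays 1 to 4. The arrays therefore fell into a low set, with cortex, bulb and 2 whole brain arrays, and a high set, with cerebellum, striatum and the other 2 whole brain arrays. The summed sorted-cell signal split the same way. It was 7443 to 8300 units on cortex and 7570 to 8186 on bulb arrays, against 11280 to 12463 on cerebellum and 10305 to 11868 on striatum arrays. On whole brain arrays 1 to 4 it was 8573, 14971, 14653 and 9338. Every cortex array was in the low set and every cerebellum array in the high set, so set and region cannot be told apart. The cause was not tested. In the ratio, 14 of the 18 were called higher in cortex and 1 higher in cerebellum, although the sorted-cell signal of 13 was higher on the cerebellum arrays.

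**Figure D4:**
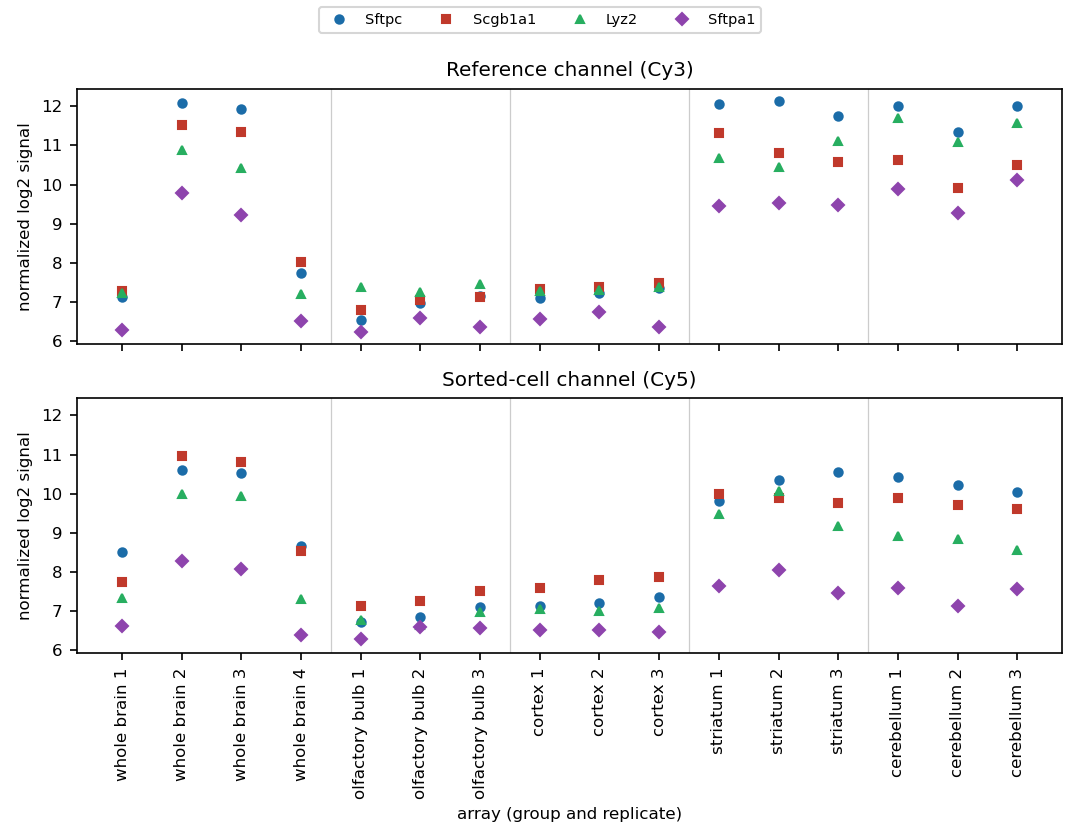
Normalized log2 signal (y axis) of 4 surfactant and airway genes on each of the 16 arrays (x axis), in the reference channel (top) and the sorted-cell channel (bottom). Sftpc in the reference is near 7 on the cortex arrays, at 7.11 to 7.36, and near 12 on the cerebellum arrays, at 11.34 to 12.01.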

How the data were processed

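Agilent 2-colour mouse arrays were deposited as scanner output of Agilent Feature Extraction 8.1.1.1, per the submitters' processing notes, holding intensity values per spot, per the file headers; the deposited log10 ratios of red over green entered 1 alternative. The amplified cDNA came from a global PCR, per the labels' protocols, which can compress or distort levels.

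Here the mean spot intensity was background-corrected (limma 3.58.1 in R 4.3.3, normexp, offset 50) and loess-normalized within each array. The offset pulls ratios of dim spots towards 0. Control spots and flagged outliers were left out, spots of a probe were averaged, and the brightest probe stood for its gene. A gene was tested where its spots were well above background on at least 3 arrays for the sorted cells or 8 for the reference. Of 28655 genes 27262 were tested, 458 of them with a value missing on at least 1 of the 6 arrays. Names came from RefSeq through accession, symbol or synonym, else from the array; Sp9, Prdm13, Skor2, Crh, Rbfox3, Hbb-b1, Hbb-bs, Ahsp and Gapdh were not analysed here.

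limma fitted 5 group means over 16 arrays, so all groups share the spread. The cortex minus cerebellum contrast was adjusted by Benjamini-Hochberg over all genes. Genes named were the 15 highest and 15 lowest 2-fold calls whose arrays did not overlap, whose name is a RefSeq symbol and whose sorted-cell channel difference exceeded that of the reference, plus members of 31 lists. Some genes that meet this rule are not reported here. The comparison and the lists were chosen with earlier results of these data known. The number of arrays limits the precision. Alternatives changed background correction, centring, scaling, filters, probe summary, arrays fitted, the channel and single arrays. The fit was tested on simulated data.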

Additional observations from a re-analysis of the deposited data

Results flagged for a closer look

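For 16 of the 29 genes named at the ends of the comparison, every array of one region lay above the whole brain reference and every array of the other below it, and the limma contrast tested the difference. In 5 of them cortex cells were above the reference: Bcl11b (2.36), Etv1 (2.29), Sox2 (2.21), Id4 (2.07) and Tshz1 (1.84). In 11 of them cerebellum cells were above it: Lhx5 (-4.37), Ebf3 (-4.19), Zic2 (-3.34), Otx2 (-3.26), Zic5 (-3.18), Zic1 (-3.12), Asic4 (-3.05), Mab21l1 (-2.69), Neurod2 (-2.67), Plagl1 (-2.60) and Lamb1 (-2.47). The values are log2 differences, cortex minus cerebellum. The rule picked the named genes for large differences without overlap, so these counts describe the picked genes only. The share over all genes was not counted. Lhx5 was well above background on 1 cortex array and Otx2 on none, so their cortex levels are uncertain.

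The reference channel, which takes no part in the comparison except as denominator, differed between the arrays of the 2 regions. Its log2 signal was higher on the cerebellum than on the cortex arrays by 4.55 for Sftpc, 4.12 for Lyz2, 3.19 for Sftpa1 and 2.94 for Scgb1a1.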

How the results depend on the processing

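The count of genes called lay between 5081 and 7831 over the alternatives, within 1.5 times of 7096. The 2-fold count lay between 291 and 430 except for the scanner's log ratio (1310, with 521 higher in cortex and 789 in cerebellum), which has no offset for dim spots, and the sorted-cell channel alone (710). Leaving out single arrays gave 3780 to 5496 calls in the sorted-cell channel alone and 1 in the reference channel alone. There the counts were 859 with 6 arrays, 10 with loess and Aquantile signals and 299 with the replicate block. After each group's mean was subtracted, same-numbered cortex and cerebellum arrays correlated across genes at 0.094, 0.099 and -0.10. Pairs with different numbers correlated at -0.23 to 0.24. With 3 arrays a group these values cannot show whether the numbers pair the samples. With the number as a replicate block 7831 genes were called, 360 of them 2-fold.

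The forebrain GABAergic list kept its sign, with a median of 2.05 without background correction, 2.16 from the scanner's ratio and 2.26 in the sorted-cell channel alone. The telencephalic median was 1.18 from the scanner's ratio and 0.71 to 0.89 without single arrays. The cerebellar GABAergic median was -0.75 with median centring, -0.99 from the scanner's ratio, -1.56 with the mean of probes, -0.97 in the sorted-cell channel alone and -0.92 to -0.77 without single arrays. The granule cell median was -1.11, -0.66 and -0.75 under the same settings without centring, and -0.84 with the filter on all 3 arrays of a group. The cause was not tested.

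Of 162 genes followed through the alternatives, not all of them described here, 154 were called. Of those, 109 kept the call and its direction in all 17 alternatives. Fitted on the 6 arrays of cortex and cerebellum alone, Calb1, Slc6a5, Gria2, Gsx2, Penk and Nfic were not called (limma adjusted p = 0.058, 0.0502, 0.056, 0.057, 0.061 and 0.085). Signs turned in the sorted-cell channel alone for Gad1 (0.029), Flt1 (-0.60), Sftpa1 (-1.19), Lyz2 (-1.76), Selenbp1 (-0.38), Mela (1.35), Pcp2 (0.26) and Zic4 (0.50). They turned with the mean of probes for Slc17a6 (-0.34), Mki67 (-0.11) and Pcp2 (0.099), and with median centring for Gad1 (0.095), Pcp2 (0.031) and Slc12a2 (0.018). Leaving out single arrays turned Gad1 (-0.18 to 0.16, positive without cerebellum replicate 2), Mki67 (-0.10 to 0.23, negative without cerebellum replicates 1 and 3) and Slc12a2 (-0.099 to 0.027, positive without cerebellum replicate 3). Genes not well above background in cortex have only a bound there.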
